A study of Glycine max with 12 samples.

Results

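Leaf RNA of soybean (Glycine max) grown in the field season of 2010 was compared with that of 2009, the pair of seasons with the smallest differences between libraries in a study of 4 seasons. The comparison takes the 6 libraries of those seasons, of 12 in all, by the year in their labels. There were 4 libraries of 2010 and 2 of 2009. Each library held the RNA of newly opened trifoliate leaves from at least 8 plants of 1 plot near Brookings, at the stage when a few trifoliates have unfolded, and all plots are labelled with the cultivar AG1631.

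In 2009 the sample was taken on June 25, after 9.9 cm of rain and at 27.2 °C. In 2010 it was taken on June 22, after 19.4 cm of rain and at 25.6 °C. The 2009 control plot is labelled as kept free of weeds with sethoxydim, dated to June 26, the day after sampling, and both 2010 control plots with glyphosate. The weedy plot of 2009 held velvetleaf and buckwheat that had come up by themselves, about 48 to the square metre, and both weedy plots of 2010 held flax at about 600. The 2009 plots had rows 76 cm apart. In 2010 each treatment had 1 plot in 76 cm rows and 1 in 18 cm rows, which the deposited table heads as row and drill, and matching these headings to the spacings is an inference. With 1 plot per treatment in 2009, and with rain, temperature, herbicide, weed species and weed density all changing with the year, what sets the seasons apart cannot be told apart from these data. The spread within a season is that between single plots, which also differ in treatment or row spacing.

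A young leaf adjusts its messenger RNA to temperature, water, light and the time of day. Heat raises the messages of chaperones, which keep other proteins folded, and drought raises those of dehydrins and other late embryogenesis abundant proteins, which protect cells that lose water. Gibberellins and xyloglucan endotransglucosylases act in leaf expansion, the hormone by promoting growth and the enzymes by cutting and rejoining wall polymers. Resistance genes with nucleotide-binding and leucine-rich repeat domains (NBS-LRR) are often present or absent, or differ in sequence, between soybean lines, so their messages also vary with genotype.

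The deposited values are log2 FPKM, a level per gene length and library size, brought to 1 common distribution in all 12 libraries. Every library runs from 0 to 13.50 with a median of 3.22, so a change shared by most genes cannot be seen, and the read depth is unknown. Of 30459 genes kept, 30456 were tested with limma, with the spread estimated from all 12 libraries and treatment as a covariate. Leaf genes were abundant in every library: the Rubisco small chain Glyma13g07610 stood at 10.44 and 11.01 in 2009 and at 9.63 to 10.59 in 2010. The list of markers of other tissues had only 2 members, both named AHB1, a non-symbiotic haemoglobin, so it tests little. Glyma11g12960 was between 0.13 and 1.72 in the 6 libraries and Glyma11g12980 between 3.65 and 4.91. In whole leaves, fewer cells of a type and less RNA per cell cannot be told apart.

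The libraries of the 2 seasons lay close together. The root mean square difference over all genes was 0.438 to 0.608 log2 units in the 8 pairs of a 2009 with a 2010 library. The control and weedy libraries of 2009 differed from each other by 0.445. Within 2010 the range was 0.278 to 0.480, and the 3 pairs that include the weedy drill library, which stood apart, gave the upper values. Pairs of 2008 with 2010 reached 0.842 to 1.08. By the same fit, with other numbers of libraries per season, each of the other 5 pairs of seasons gave calls in 19.3% to 55.5% of genes. The spread between plots of 1 season thus overlapped the step from one season to the other.

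**Figure D1:**
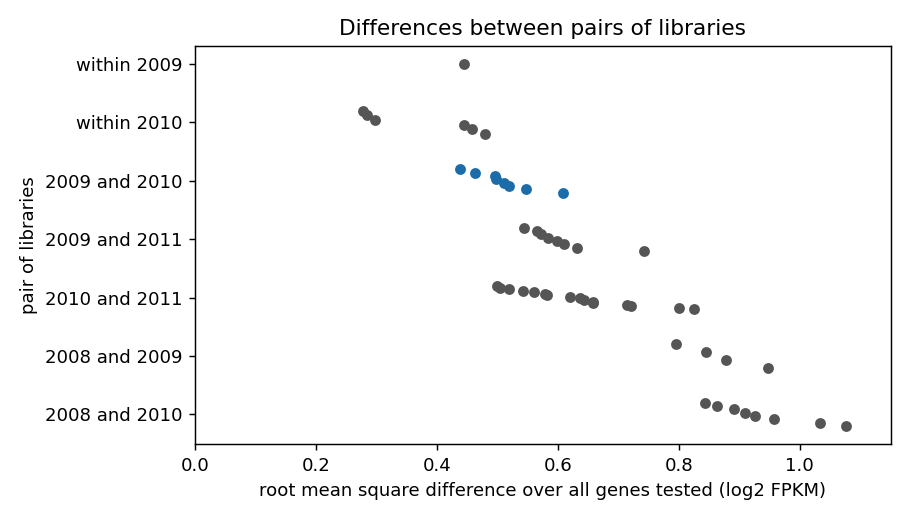
Root mean square difference in log2 FPKM (horizontal axis) for each pair of libraries, 1 point per pair, with pairs grouped by season on the vertical axis. The 2009 with 2010 pairs (blue) lie between 0.438 and 0.608, and the single pair within 2009 lies at 0.445, inside that range.

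Of 30456 genes 531 passed an adjusted p of 0.05 (1.74%), with 283 higher (0.929%) and 248 lower (0.814%) in 2010. Of these, 241 differed by at least 1 log2 unit, 111 higher and 130 lower, and 71 by at least 2. In all 531 the libraries of 2010 lay wholly above or below those of 2009, as they did in 28.0% of all genes. The median difference over all genes was 0.03. The count depended on which libraries were fitted. A fit of the 6 libraries alone called 182 genes, 69 higher and 113 lower, of which 144 were among the 531. Leaving out the 2009 control library left 108 calls and leaving out the 2009 weedy library left 274. Leaving out the 2010 control drill library left 220, the 2010 weedy row library 286, and the libraries of 2008 298. Using only the row-planted plots of 2010 left 210. With row or drill planting as a covariate it was 221. A core of 65 genes was called under every setting tried. Of 69 genes that passed and were picked by the naming rule or for description, 26 kept their call in every setting, 43 lost it in at least 1, 41 of them without the 2009 control library, and none changed direction. A call is said below to hold only where it belongs to the 26. Some genes described below, picked after their values were seen, lie outside the 69, and their losses were not counted.

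**Figure D2:**
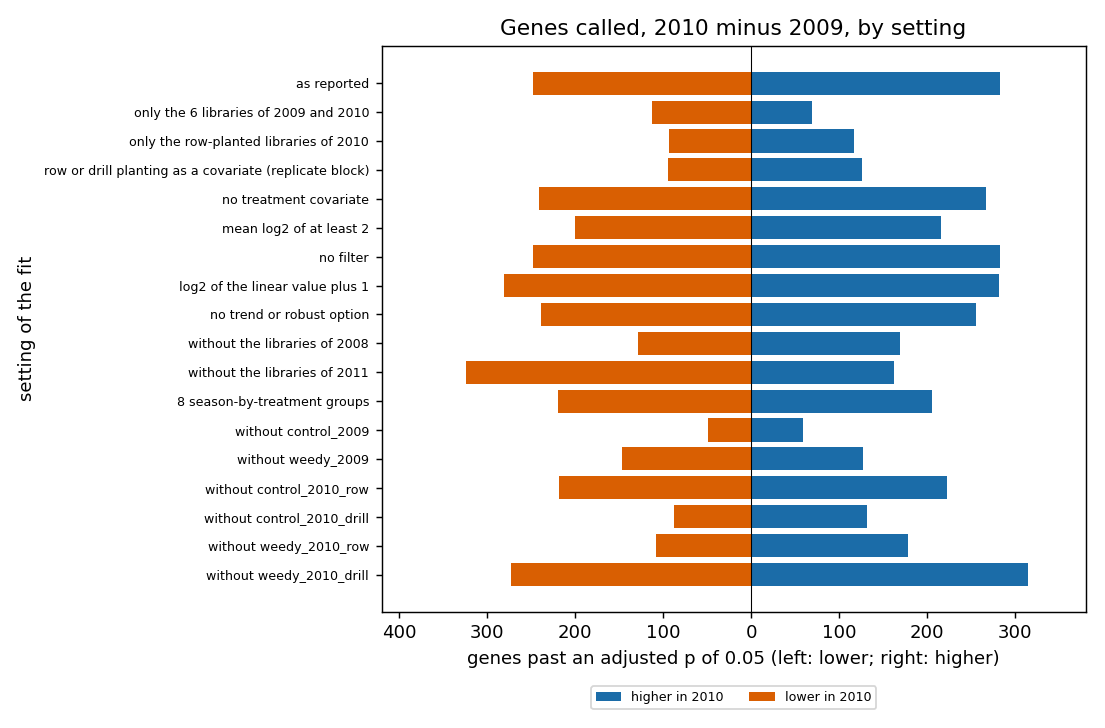
Number of genes past an adjusted p of 0.05 under each setting of the fit (vertical axis), with genes lower in 2010 to the left of 0 and genes higher to the right. The fit as reported gives 248 and 283, and the fit without the 2009 control library gives 49 and 59.

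The largest rise was in COR47 Glyma04g01130, a dehydrin known in Arabidopsis as cold-induced. Its level was 0.24 and 0.17 in the control and weedy libraries of 2009, and 7.36, 7.03, 7.15 and 8.14 in the control row, control drill, weedy row and weedy drill libraries of 2010. The difference was 7.21 ± 0.26 (SE) log2 units (limma, adjusted p = 3.5e-07). It was also near 0 in 2008, at 0.44 and 0.39, and between 7.69 and 8.20 in the 4 libraries of 2011, so both early seasons lay near 0 and both late seasons lay high.

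The step between 2009 and 2010 lay in the same place in 6 of the 10 largest rises, COR47 included. A protein kinase gene, Glyma09g30440, rose from 0.24 and 0.34 to between 4.33 and 4.45, a difference of 4.09 ± 0.09 (adjusted p = 8.5e-09). Glyma17g26540, whose protein is uncharacterised, rose from 0.46 and 0.17 to between 4.65 and 4.74. Glyma14g09220, matched to an S-ribonuclease binding protein, rose by 3.72 ± 0.19, and Glyma04g10430, matched to a transporter of the chloroquine-resistance type, by 4.25 ± 0.19. In each of these genes the libraries of 2008 lay at 1.17 or below and those of 2011 at 3.96 or above.

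A count of such genes was made with limits chosen after the values were seen. There were 14 genes under 1 in both libraries of 2009 and at least 3 in all 4 of 2010, and 0 of the reverse kind. In 11 of the 14 both libraries of 2008 were under 2 and all 4 of 2011 at least 2.5. Among these 11 were VPS2.1 Glyma15g19000, a subunit of the machinery that buds vesicles into endosomes, at 0.47 and 0.54 in 2009 and 3.16 to 3.35 in 2010, and Glyma04g02410, annotated as a winged-helix DNA-binding factor, at 0.71 and 0.81 against 3.44 to 3.62. Glyma20g34670 was the largest of the others: it stood at 0.30 and 0.44 in 2009 and 4.55 to 5.27 in 2010, but at 2.69 and 2.66 in 2008. Values near 0 may have been set by a floor in the processing. These limits leave out falls with a step in the same place. One is cpSUFE Glyma16g34010, at 5.65 and 4.24 in 2009 and 0.04 to 1.71 in 2010. It was at 4.81 and 4.07 in 2008 and at 0.19 to 2.92 in 2011, and its call was lost in 8 of 17 other settings.

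The largest fall was in Glyma02g03250, which encodes a matrixin, an extracellular zinc metalloprotease. Its level was 10.51 and 10.89 in 2009 and 1.94, 2.15, 2.27 and 1.37 in 2010, a difference of -8.76 ± 0.24 (adjusted p = 3e-08). It alternated by season, at 1.01 and 1.11 in 2008 and 10.10 to 10.51 in 2011. CSD1 Glyma03g40280, a copper/zinc superoxide dismutase that clears superoxide, did the same: 8.34 and 8.53 in 2009, 4.20 to 4.60 in 2010, 3.96 and 3.73 in 2008, and 7.85 to 8.79 in 2011. It fell by 4.0 ± 0.18 (adjusted p = 2.2e-06). Another superoxide dismutase, the iron enzyme FSD2 Glyma10g22680, rose by 1.75 ± 0.16, from 2.41 and 2.62 to between 3.96 and 4.60, and in 2008 and 2011 it was at 3.74 or above. Of 33 antioxidant genes these 2 passed (6.06%, against 1.74% of all genes).

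**Figure D3:**
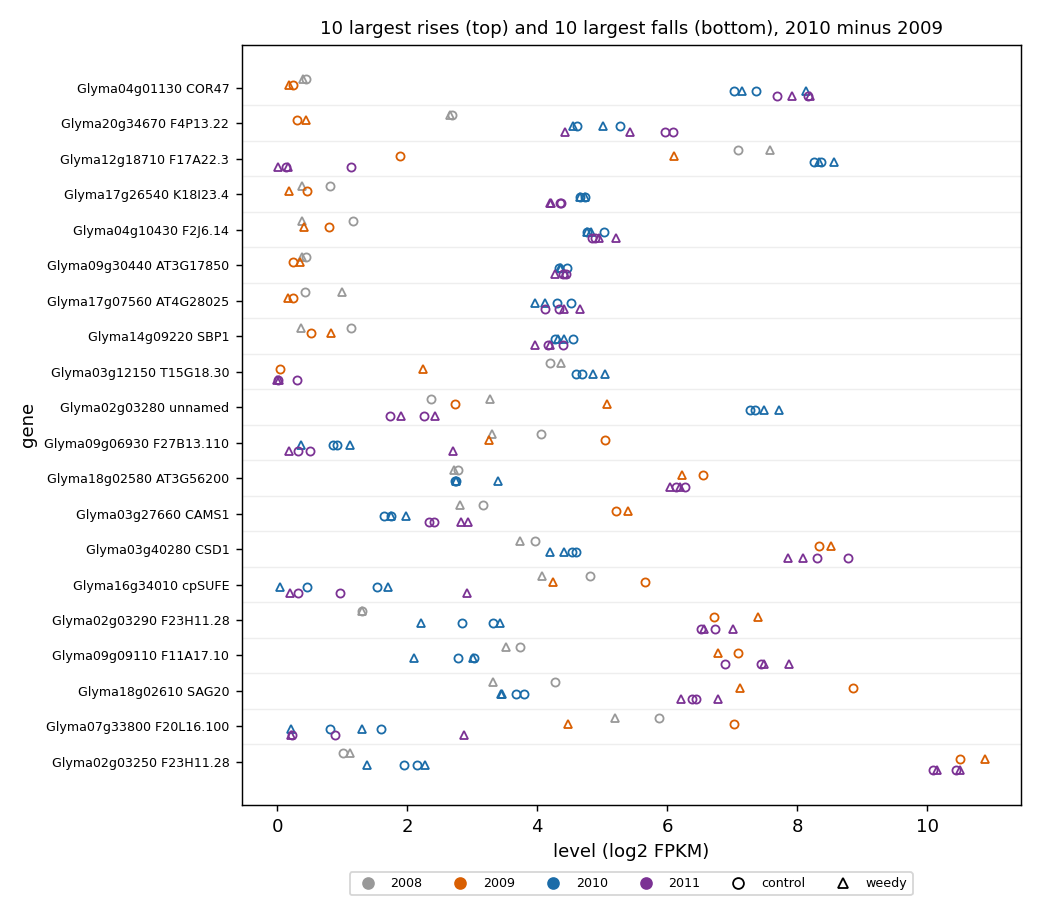
Level in log2 FPKM (horizontal axis) of the 10 genes with the largest rises and the 10 with the largest falls from 2009 to 2010 (vertical axis), 1 symbol per library, coloured by season, circles for control and triangles for weedy plots. The 2008 libraries sit with 2009 in 6 of the 10 rises, as in COR47 at 0.39 and 0.44, while in several falls, as in Glyma02g03250, 2011 sits with 2009.

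Some of the largest differences rested on a wide spread between the 2009 plots. Glyma12g18710, matched to a small nuclear ribonucleoprotein, was at 1.89 in the control and 6.11 in the weedy library of 2009, against 8.25 to 8.57 in 2010. Its call (adjusted p = 0.0275) was lost in 8 of 17 other settings. Glyma03g12150, matched to an interactor of a gamma-tubulin complex protein, was at 0.05 and 2.24 in 2009, 4.60 to 5.04 in 2010 and 4.20 and 4.36 in 2008, but at 0.29 or below in all 4 libraries of 2011. Its call held in all of them. Glyma03g11670, chosen after its values were seen, had the same form, with 0.04 and 1.70 in 2009 and 3.99 to 4.10 in 2010. The weedy library of 2009 was the one nearer to 2010 in 340 of the 531 genes (64.0%), against 49.5% of all genes.

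Placing 2008 and 2011 beside the pair sorted the 531 genes into 4 forms, by the widest gap between whole sets of libraries, a rule set after the values were seen. Of the 531, 110 met several of these splits and were placed by the widest gap alone. In 156 (29.4%) the 2009 libraries lay apart from the other 3 seasons, and in 152 (28.6%) those of 2010 did. In 117 (22.0%) 2009 lay with 2011 and 2010 with 2008. In 93 (17.5%) 2009 lay with 2008 and 2010 with 2011, with 42 higher and 51 lower in 2010. The remaining 13 had no such split. Over all genes the same forms held 5.15%, 9.87%, 2.46% and 2.58%. All 4 seasons entered the fit and any called gene has its 2 seasons separated, so these shares describe the calls and test nothing.

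Genes in which 2009 alone lay apart include a pair of neighbours on chromosome 3 that encode oxidosqualene cyclases, the enzymes that fold squalene epoxide into triterpenes. CAMS1 Glyma03g27660 was at 5.21 and 5.39 in 2009 and 1.63 to 1.98 in 2010, a fall of 3.52 ± 0.17 (adjusted p = 2.3e-06). ATLUP2 Glyma03g27670, named after its values were seen, was at 4.37 and 4.34 against 0.88 to 1.57, a difference of -3.10 ± 0.21. Their names come from Arabidopsis matches, and near-identical copies may share reads. Both kept the call in all 17 other settings. Genes in which 2010 alone lay apart differed less: 40 of 152 by at least 1 log2 unit, against 73 of 156 where 2009 lay apart. One, named after its values were seen, was phospholipase D beta 1 Glyma03g02120, at 2.02 and 2.14 in 2009 and 0.05 to 0.25 in 2010.

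Neighbouring genes moved together on chromosome 18. Glyma18g02580, an amino acid transporter, was at 6.55 and 6.22 in 2009 and at 2.74, 2.73, 2.76 and 3.39 in 2010, a difference of -3.48 ± 0.19 (adjusted p = 4.9e-06). ALPHA-SNAP2 Glyma18g02590, which helps to take apart the protein complexes that fuse membranes, went from 9.19 and 8.89 to between 5.98 and 6.23, a difference of -2.96 ± 0.14. SAG20 Glyma18g02610, named for a senescence-associated gene, went from 8.85 and 7.12 to between 3.44 and 3.80, a difference of -4.39 ± 0.33. All 3 lay low in 2008 and high in 2011. For Glyma18g02590, named after its values were seen, this was 5.20 and 5.35 in 2008 and 9.10 to 9.41 in 2011.

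The genes to either side did not pass: Glyma18g02570 differed by 0.31 ± 0.11 (adjusted p = 0.16) and Glyma18g02620 by -0.55 ± 0.22 (adjusted p = 0.187). As background, these 3 genes belong to Rhg1, a soybean locus for resistance to cyst nematode at which lines differ in the number of copies of the segment. Copy number was not measured here, all plots are labelled with the same cultivar, and season and seed stock cannot be told apart.

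The matrixin gene of the largest fall also lies in a row of relatives, on chromosome 2. Of 7 genes from Glyma02g03210 to Glyma02g03320, 6 are annotated as matrixins and 1 is unnamed. Glyma02g03290 fell by 4.11 ± 0.31, from 6.73 and 7.39 to between 2.22 and 3.43, Glyma02g03320 by 2.68 ± 0.23 and Glyma02g03310 by 1.61 ± 0.29. Glyma02g03210 rose by 1.26 ± 0.24, while Glyma02g03230, between the risen and the most strongly fallen gene, differed by -0.05 ± 0.19 (adjusted p = 0.9). The unnamed Glyma02g03280 rose by 3.56 ± 0.40, from 2.73 and 5.07 to between 7.28 and 7.72. The 6 matrixin genes share 1 Arabidopsis match; their sequences were not compared, and how reads shared between copies would have been counted is not stated. Glyma02g03310 lost its call in 9 of 17 other settings and Glyma02g03210 in 8, and the other called genes of the row in none.

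**Figure D4:**
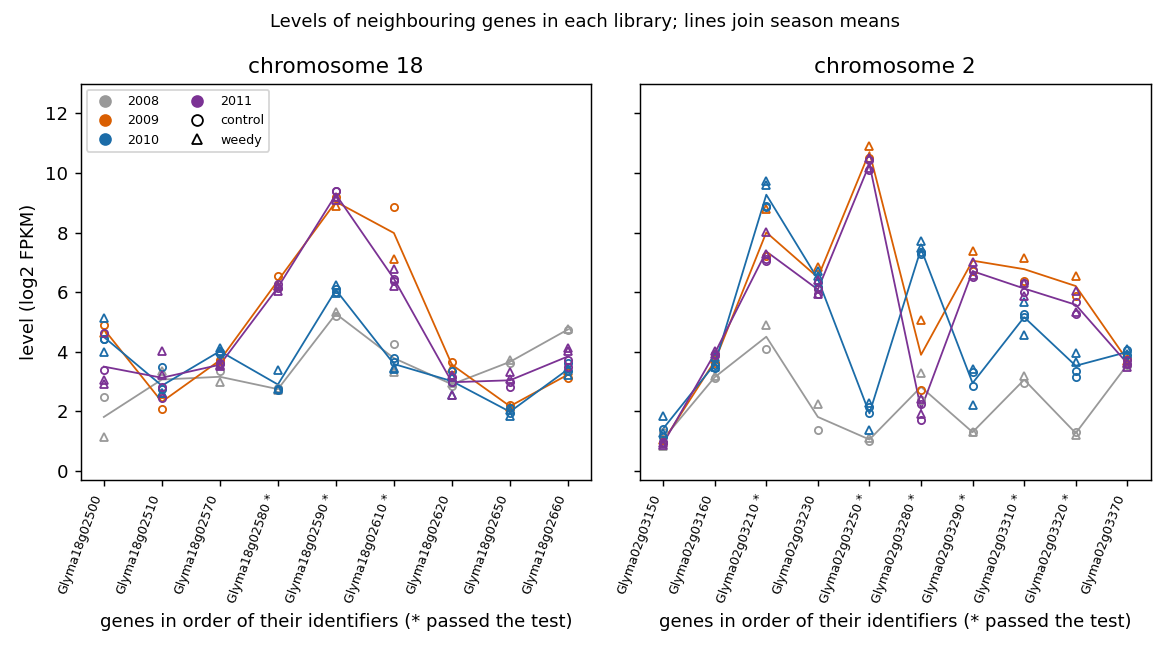
Level in log2 FPKM (vertical axis) of neighbouring genes in the order of their identifiers on chromosomes 18 and 2, 1 symbol per library and lines through season means. On chromosome 18 the 3 starred genes are high in 2009 and 2011 and low in 2008 and 2010. The genes to either side, Glyma18g02570 and Glyma18g02620, differ less between 2009 and 2010, by 0.31 and -0.55. On chromosome 2 Glyma02g03250 falls from 10.51 and 10.89 in 2009 to at most 2.27 in 2010.

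Called genes were unevenly spread over the chromosomes. The share was 3.15% on chromosome 18 (47 of 1490), 2.98% on chromosome 3 (41 of 1374) and 2.77% on chromosome 15 (40 of 1444), against 0.793% on chromosome 8 (17 of 2143). In the fit of the 6 libraries alone chromosomes 3 and 18 again had the highest shares, 1.38% and 1.14%, but the lowest was on chromosome 16, at 0.184% against 2.3% in the fit of all 12, with 0.28% on chromosome 8. Neighbours that share reads or a segment are not independent, and no test was made of this spread.

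Resistance genes held more calls than most lists. Of 160 NBS-LRR genes 8 rose and 3 fell (6.88%, against 1.74% of all genes), and 149 did not pass. The list's median difference was 0.04, close to the 0.03 of all genes. RFL1 Glyma18g46120 rose by 2.79 ± 0.27, from 1.72 and 3.35 to between 5.19 and 5.63 (adjusted p = 5.7e-04), and it stood at 4.73 to 5.29 in the 6 libraries of 2008 and 2011. Glyma15g37390 rose by 1.88 ± 0.14, from 0.63 and 0.90 to between 2.57 and 2.68, and Glyma03g04530 by 1.94 ± 0.23. In both, 2008 lay with 2010 and 2011 with 2009. Glyma16g25080, of the TIR class, rose by 1.67 ± 0.22, with 2008 beside 2009. Such genes come in near-identical clusters, so a level can hold reads of a sister copy. The calls of RFL1 and Glyma15g37390 held, and those of Glyma03g04530 and Glyma16g25080 were lost with the 6 libraries alone.

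The other defence lists held 2 calls or fewer each. Of 52 chitinases, glucanases and pathogenesis-related proteins 1 rose and 1 fell (3.85%, against 1.74% of all genes). The chitinase Glyma02g01020 rose from 0.81 and 1.52 to between 1.99 and 3.05, a difference of 1.38 ± 0.23, and the thaumatin-like Glyma05g33860 fell from 5.53 and 4.26 to between 2.69 and 3.60. Of 85 WRKY factors, regulators of defence, WRKY11 Glyma17g06450 fell (1.18%), by 0.80 ± 0.17. Of 63 genes of jasmonate synthesis and signalling 1 fell (1.59%): lipoxygenase 2 Glyma11g13880, which starts the pathway, went from 4.71 and 4.95 to between 3.26 and 3.99. The call of the chitinase was lost in 6 of 16 other settings. Those of the thaumatin-like gene, WRKY11 and lipoxygenase 2 were lost in 9, 13 and 3 of 17. None of 16 vegetative storage protein acid phosphatases and none of 55 glutathione transferases passed.

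The hotter season was 2009. Of 72 small heat shock proteins 3 rose in 2010 (4.17%, against 0.929% of all genes higher) and 69 did not pass. Glyma16g01440 rose by 1.26 ± 0.25, from 3.75 and 2.67 to between 4.24 and 4.95, Glyma04g38530 by 1.20 ± 0.20 and Glyma17g24150 by 0.54 ± 0.12. The first and the last lost the call in 11 and 13 of 17 other settings and Glyma04g38530 in 4 of 16. HSF1 Glyma07g09510, a heat shock factor that switches such genes on, rose by 1.65 ± 0.23, from 1.74 and 2.25 to between 3.32 and 3.84. It was the 1 of 50 factors and co-chaperones that passed (2.0%, against 1.74% of all genes), and without the 2009 control library it did not.

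Of 85 chaperones of the HSP70, HSP90, HSP60 and HSP100 families and their partners, 1 fell (1.18%, against 1.74% of all genes called). CPN10 Glyma06g41830, the lid of the HSP60 folding chamber, went from 3.87 and 3.04 to between 0.02 and 1.07, a difference of -2.78 ± 0.30 (adjusted p = 0.00125), and alternated by season like the matrixin. The medians of the 3 lists were 0.19, 0.20 and 0.20, all above the 0.03 of all genes, but in the small heat shock protein and chaperone lists the library medians of the 2 seasons overlapped. Of 36 genes of protein folding in the endoplasmic reticulum none passed, and the median was -0.15. The lowest p there belonged to calnexin 1 Glyma06g17060, at 8.66 and 7.64 in 2009 and 6.94 to 7.98 in 2010, which overlap.

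More rain fell before sampling in 2010, and lists chosen for the water response, by annotation alone, held calls in both directions. Of 36 dehydrins and late embryogenesis abundant proteins 2 rose and 1 fell (8.33%, against 1.74% of all genes), COR47 being one of the 2, while the median was -0.24. Glyma03g00310 rose by 0.74 ± 0.12 and Glyma13g42590 fell by 1.0 ± 0.21, calls lost in 3 and 10 of 17 other settings. Both are annotated as hydroxyproline-rich glycoproteins of the late embryogenesis abundant kind, and a part in the water response was not tested. Of 69 genes listed under abscisate and drought 2 passed (2.9%), 1 in each direction. FCA Glyma19g40570 rose. It is annotated as binding RNA and abscisic acid and is known in Arabidopsis for its part in flowering. ATDI19 Glyma05g02660, named as drought-induced, fell. FCA differed by 0.60 ± 0.10 and ATDI19 by -0.65 ± 0.12, calls lost in 7 and 8 of 17 other settings. Of 47 aquaporins, the water channels, none passed, with 38 below 0 (80.9%, against 44.7% of all genes). GAMMA-TIP Glyma19g37000, a channel of the vacuole, had the smallest p, at 8.27 and 7.75 in 2009 and 6.24 to 6.85 in 2010 (adjusted p = 0.0944).

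In the gibberellin, wall, auxin and wax lists every call was a fall. Of 25 genes of gibberellin synthesis and response 3 fell and none rose (12%, against 0.814% of all genes lower), and these 3 are enzymes of the last steps of synthesis. The whole list was split, with 12 members above 0 and 13 below, and its library medians of the 2 seasons overlapped. Both genes named GA3OX1, which makes the active hormone, fell: Glyma15g01500 from 2.87 and 2.61 to between 0.56 and 1.35, by 1.70 ± 0.24 (adjusted p = 0.00732), and Glyma13g43850 from 3.23 and 3.86 to between 1.88 and 2.62, by 1.35 ± 0.25. The gibberellin 20-oxidase Glyma06g16080, which makes its precursor, fell from 2.51 and 3.13 to between 0.93 and 2.14, by 1.42 ± 0.24. In 2011 all 3 were at 2.41 or above in every library, and in 2008 they lay at 1.42 and 1.79, 3.70 and 3.69, and 1.86 and 2.21, in the order given. The calls of Glyma13g43850 and Glyma06g16080 were lost in 7 and 5 of 17 other settings and that of Glyma15g01500 in 2; all 3 were lost with the 6 libraries alone and without the 2009 control library.

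Of 71 expansins and xyloglucan endotransglucosylases 4 fell (5.63%, against 0.814% of all genes lower), all of the second kind, and the list's median was -0.32. Glyma18g00630 fell from 3.02 and 2.78 to between 0.66 and 1.52, by 1.74 ± 0.21 (adjusted p = 0.00264), and Glyma10g06140 by 1.68 ± 0.31. Glyma10g39760 fell by 1.03 ± 0.22 and XTR2 Glyma20g01520 by 0.59 ± 0.10. In the order given, these calls were lost in 1, 9, 11 and 6 of 17 other settings. The list's median per library, after centring each gene, was 0.24 and 0.19 in 2009 and between -0.239 and 0.014 in 2010, so the seasons did not overlap, as in 9 of the 35 lists. Of 154 SAUR, Aux/IAA and GH3 genes, which respond to auxin, 2 SAUR genes fell (1.3%), Glyma06g00950 by 1.16 ± 0.22 and Glyma12g03950 by 0.81 ± 0.16. These SAUR calls were lost in 8 and 11 of 17 other settings. Of 31 genes of wax and cutin synthesis 1 fell (3.23%, against 0.814% of all genes lower). This was KCS11 Glyma02g00380, which lengthens fatty acids for wax, by 0.89 ± 0.18, a call lost in 10 of 17 other settings. The median of that list was -0.44, with 27 members below 0 (87.1%, against 44.7% of all genes). Its library medians overlapped, at 0.024 in the control and 0.522 in the weedy library of 2009 against -0.391 to 0.037 in 2010. None of 124 cyclins and cyclin-dependent kinases and none of 66 core histones passed. Growth genes outside these lists, picked after their values were seen, also rose: ANT Glyma05g22970, which in Arabidopsis promotes organ growth, went from 4.20 and 4.35 to between 5.19 and 5.80, by 1.18 ± 0.24 (adjusted p = 0.0404), and CDT1A Glyma06g06590, which licenses DNA replication, from 0.27 and 0.85 to between 1.96 and 2.41, by 1.67 ± 0.18 (adjusted p = 0.00105). For ANT and CDT1A the settings in which the call was lost were not counted.

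The clock list gave 4 rises of 61 and no fall (6.56%, against 0.929% of all genes higher), and 3 of them were genes named APRR5, a pseudo-response regulator that represses morning genes in the afternoon. The list's median was -0.04, with 30 members above 0 and 31 below, and its library medians of the 2 seasons overlapped. Glyma16g02050 rose by 2.38 ± 0.33, from 2.29 and 4.16 to between 5.36 and 5.92 (adjusted p = 0.00599). Glyma04g40640 rose by 1.42 ± 0.22 and Glyma03g42220 by 1.07 ± 0.17. The other 3 APRR5 genes did not pass, with differences of 0.88 (Glyma19g44970), 0.75 (Glyma06g14150) and 0.08 (Glyma07g05530). TOC1 Glyma04g33110, an evening gene of the same family, rose by 0.44 ± 0.08, and 3 further TOC1 genes did not pass, at 0.28 to 0.73.

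None of the 4 LHY genes, which peak at dawn, passed, and their differences ran from -0.71 to -0.20. Of the 3 GIGANTEA genes, also of the evening, none passed, at -0.37 for Glyma10g36600 and 0.53 and 0.73 for the others. These family counts were made after the values were seen. The labels give no hour of sampling, so the hour and the season cannot be told apart. The call of TOC1 was lost in 11 of 17 other settings, and those of the 3 APRR5 genes in 2 or 3.

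Most photosynthesis genes had differences below 0, and nearly all missed the threshold. Of 133 light-harvesting and photosystem subunits 121 lay below 0 (91.0%, against 44.7% of all genes), with a median of -0.29. The 1 that passed was PSBW Glyma10g03750, a small subunit of photosystem II. It went from 7.22 and 7.50 to between 5.99 and 6.33. The list's median per library, centred as above, was -0.094 in the control and 0.517 in the weedy library of 2009 and -0.258 to 0.093 in 2010, so the seasons overlapped and the weedy plot of 2009 stood highest. All 14 Calvin cycle and Rubisco genes lay below 0 and none passed. The median of this list was -0.216 in the control and 0.615 in the weedy library of 2009. In 2010 it was -0.499 to 0.259, so here too the seasons overlapped and the weedy plot of 2009 stood highest. Rubisco activase Glyma18g04080 was at 7.04 and 8.98 in 2009 and 7.04 to 7.58 in 2010.

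**Figure D5:**
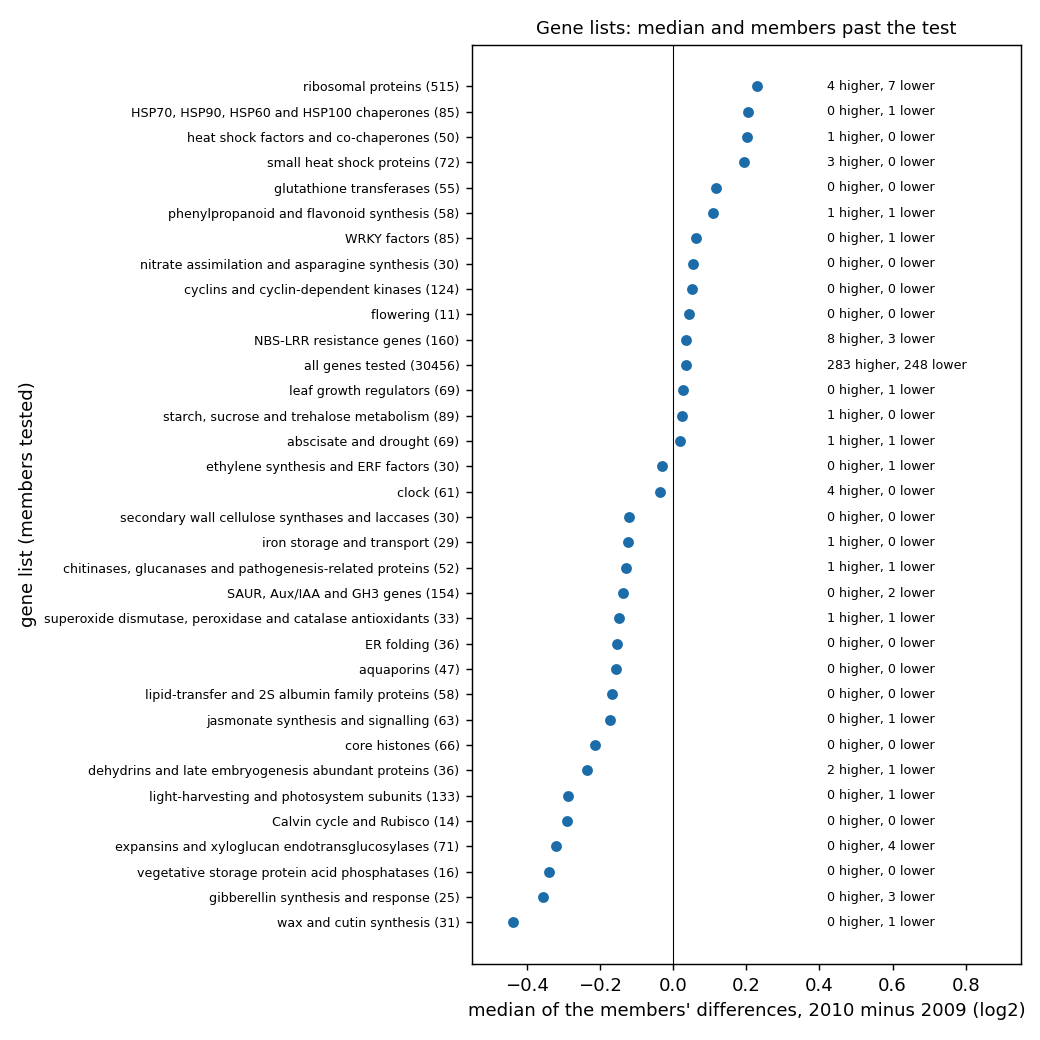
Median log2 difference, 2010 minus 2009, of the members of each list with at least 10 members (horizontal axis), with the number of members tested in brackets and the number past the test in each direction at the right. Medians run from -0.439 for wax and cutin synthesis to 0.228 for ribosomal proteins, and most lists hold between 0 and 4 calls.

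Ribosomal proteins were the largest list. Of 515 there were 370 above 0 (71.8%, against 55.3% of all genes), with a median of 0.23. In 218 (42.3%, against 16.7% of all genes) every library of 2010 lay above those of 2009. Past the threshold 4 rose and 7 fell (2.14% called, against 1.74% of all genes). The falls were larger. Glyma07g33800, whose match is a protein of the small subunit, went from 7.03 and 4.48 in 2009 to 1.59, 0.81, 1.31 and 0.21 in 2010, a difference of -4.77 ± 0.81. Glyma08g05290 fell by 2.74 ± 0.56, and the S27a and ubiquitin fusion genes Glyma09g02760 and Glyma15g13650 by 2.64 ± 0.56 and 2.41 ± 0.48. In all 4 of these genes 2008 lay with 2009 and 2011 with 2010. In each of these 4 the control library of 2009 was higher than the weedy one, by over 1 log2 unit in 3, and in 2010 the weedy drill library was lowest. Their adjusted p values lay between 0.0202 and 0.0474, and all 4 calls were lost without the 2009 control library. The ribosomal list was another of the 9 whose library medians did not overlap, at -0.085 and -0.255 against -0.041 to 0.247.

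In flavonoid synthesis 2 of 58 phenylpropanoid genes passed (3.45%, against 1.74% of all genes), in opposite directions. TT7 Glyma06g21920, the flavonoid 3'-hydroxylase, which adds a hydroxyl group to the B ring, rose by 1.53 ± 0.14, from 3.80 and 4.17 to between 5.27 and 5.74 (adjusted p = 3.4e-04). It alternated by season, at 5.51 and 5.71 in 2008 and 3.79 to 4.11 in 2011, and its call held in all 17 other settings. F3H Glyma02g05450, flavanone 3-hydroxylase, an earlier enzyme, fell by 0.80 ± 0.15, from 6.86 and 6.94 to between 5.89 and 6.28. Its call was lost in 10 of 17 other settings. Single members passed in 4 further lists. IRT1 Glyma07g34930, which takes up iron, rose by 1.32 ± 0.28 (1 of 29, 3.45%), and beta-amylase BMY2 Glyma01g35500, named for starch breakdown, by 0.90 ± 0.15 (1 of 89, 1.12%). RAP2.3 Glyma15g16260, an ethylene-response factor, fell by 1.55 ± 0.31 (1 of 30, 3.33%) and the TCP factor Glyma20g29330, of a family that sets leaf shape, by 0.89 ± 0.16 (1 of 69, 1.45%). The call of RAP2.3 was lost in 9 of 17 other settings, that of the TCP factor in 8 of 16 and that of BMY2 in 5 of 16. The call of IRT1 was lost in 15 of 17 other settings. None passed of 30 genes of nitrate assimilation and asparagine synthesis, 11 flowering genes, 58 lipid-transfer and 2S albumin proteins, 30 cellulose synthases and laccases of the secondary wall, or 2 early light-induced proteins.

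The season difference was also taken within each treatment, with 2 libraries of 2010 against 1 of 2009. In control plots 145 genes passed (0.476%), 82 higher (0.269%) and 63 lower (0.207%), and in weedy plots 132 (0.433%), 61 higher (0.2%) and 71 lower (0.233%). These counts turned on single libraries: in control plots they were 42 and 30 without the row and 39 and 20 without the drill library of 2010, and in weedy plots 119 and 183 without the row and 126 and 87 without the drill library. The lists shared 70 genes, 48.3% of the first and 53.0% of the second, and all 70 had the same direction, 44 higher and 26 lower, against 63.4% of all genes with the same sign in both. The overlap was not recounted without single libraries. The libraries behind the 2 lists are separate, but the spread is estimated jointly and the lone 2009 library is assumed to vary like the others. COR47 rose by 6.96 in control and 7.47 in weedy plots, and Glyma02g03250 fell by 8.46 and 9.07.

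The difference between the treatments' season effects passed for none of 30456 genes by limma, the tool used (0.0%), with 2440 at an unadjusted p under 0.05 and a smallest adjusted p of 0.182. With 1 library of 2009 per treatment, this does not show that the season effects were alike. APRR5 Glyma16g02050, for example, rose by 3.28 in control plots (adjusted p = 0.00136), while its difference in weedy plots was 1.49 (adjusted p = 0.0564) and the gap between these had an adjusted p of 0.333.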

How the data were processed

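After extraction in Trizol and on a column, RNA went into TruSeq libraries that were read from both ends on a HiSeq2000, per the labels' protocols. The deposited values are log2 FPKM, which the authors obtained from the Tuxedo suite with gene models of Phytozome 9.0, per the file headers. TopHat, Cufflinks and Cuffdiff, each as version 1.0, are named in the submitters' processing notes. The genome build, the scaling that gave all 12 libraries identical sorted values, any number added before the log and the strand are not given in the sources used here, so overlapping genes cannot be separated. No read counts were used, and the depth is unknown.

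Of 30498 entries, 39 that shared 19 gene identifiers were dropped. A gene entered the test with 3 or more libraries at a log2 value of 1 or above, and 3 genes failed this. The tools were R 4.3.3, limma 3.58.1 and statmod 1.5.0, with limma's eBayes run with its trend and robust settings. The model held a mean for each season and treatment as a covariate, over all 12 libraries. The two-sided p-values of all genes were adjusted after Benjamini and Hochberg, and 0.05 was the threshold. Effects within treatments and their difference came from a fit of 8 season-by-treatment groups. P-values measure the spread that season and treatment leave between single plots. No condition had replicate plots, so this spread also holds row or drill planting and weed effects that differed by season. The script was tested on simulated data.

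The 35 gene lists were built from Arabidopsis loci, which the table pairs with 29835 genes, and from keywords in its descriptions. The comparison, its members and the lists were chosen with earlier results of these data known, and the keywords that exclude genes from a list were tightened after the descriptions, but not the values, had been read. Named genes are the 10 largest rises and 10 largest falls among called, non-overlapping genes with a mean of at least 3 in the higher season, and per list up to 4 called members or, where none passed, the 2 of smallest p. Any other gene named was chosen after its values were seen. The reference gene table matched 0 identifiers, and gene names are taken from the deposited table. The 2010 and 2011 columns are headed row and drill and were assigned to a group, not to a numbered sample. Alternatives covered the libraries fitted, planting, treatment, filter, scale and model. The fit of 8 groups for the treatment-adjusted difference was added after seeing the data.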

Additional observations from a re-analysis of the deposited data

Results flagged for a closer look

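For each of the 111 named genes the 4 libraries of 2010 were examined for 1 value far from the other 3, by Dixon's criterion. Chance flags about 1 group in 20, and 5 genes were flagged, 4 of them in the weedy drill library, which also stood apart from the other 2010 libraries over all genes.

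In that library the amino acid transporter Glyma18g02580 was highest, at 3.39 against 2.73 to 2.76 in the others, the drought-induced ATDI19 Glyma05g02660 highest, at 3.59 against 3.28 to 3.33, and the dawn gene LHY Glyma16g01980 highest, at 7.31 against 6.86 to 6.90. The photosystem subunit PSBW Glyma10g03750 was lowest there, at 5.99 against 6.29 to 6.33. TOC1 Glyma05g00880 was highest in the control drill library, at 4.33 against 4.07 to 4.10. Without the weedy drill library Glyma18g02580 and ATDI19 still passed and PSBW did not. ATDI19 lost its call in 8 of 17 settings and PSBW in 11, while Glyma18g02580 kept it in all.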

How the results depend on the processing

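Against 283 higher and 248 lower genes, the 6 libraries of 2009 and 2010 alone gave 69 and 113, the row-planted libraries of 2010 alone 117 and 93, the fit without 2008 169 and 129, and that without 2011 162 higher and 324 lower. Requiring a difference of at least 1 beside the adjusted p left 111 and 130. Leaving out each of the 6 libraries of 2009 and 2010 in turn gave 59 to 315 higher and 49 to 273 lower genes, the lowest without the 2009 control library. The stricter filter (416 genes), no filter (531), log2 of the linear value plus 1 (563), no trend or robust option (494), no treatment covariate (508) and the added fit of 8 groups (425) stayed within 1.5 times. In control plots leaving out each library of 2010 gave 39 to 42 higher and 20 to 30 lower genes, against 82 and 63, and in weedy plots 119 to 126 higher and 87 to 183 lower, against 61 and 71. For the difference between treatments it gave 0 higher and 0 to 2 lower. The cause was not tested beyond the change in libraries fitted.

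Control and weedy plots under the same row or drill heading share a planting, inferred to be the row spacing. Over all genes, the correlation of the row minus drill difference between control and weedy was -0.048 in 2010 and 0.048 in 2011. With planting as a replicate block 126 genes were higher and 95 lower, 219 of these 221 among the 531. Depth is unknown, and 41 called genes had both season means under 2, where values may be floored.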
